A study of Mus musculus with 4 samples.

Results

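The 10 genes described here belong to the neuronal injury and regeneration response and were measured in the spinal cord of nerve-injured mice: the transcription factors Atf3, Jun and Sox11, the stress gene Gadd45a, the axon growth and cytoskeletal genes Gap43, Stmn4 and Sprr1a, and Csf1, Vgf and Ecel1, which encode a secreted cytokine, a secreted neuropeptide precursor and a membrane protease. Every probe whose gene name in the array files equals 1 of these 10 symbols was taken, which gave 15 probes in 24 spots out of 39429 probes and 30222 gene names. The samples were 4 RNA preparations from spinal slices of lumbar segments L4 to L5 of male mice of the outbred ICR stock, 5 to 6 weeks old by the study's methods, each hybridized to 1 Agilent whole mouse genome array. All mice carried a partial sciatic nerve ligation (PSL), a standard model of neuropathic pain in which part of the right sciatic nerve is tied off, and were sampled on day 7 after it. Before the ligation they had been adrenalectomized (ADX+PSL), which removes the source of corticosterone and for which saline was given as drinking fluid, or sham-operated (sham+PSL). Each operation was sampled at ZT10, when corticosterone peaks in sham+PSL mice, and at ZT22, when it has declined, ZT being the hours after lights-on. The arrays hold no uninjured mice, so that every level below is a level after injury and none shows how far the injury itself induced a gene. How many mice stood behind each RNA, and whether the slices came from the injured side, the other side or both, is not given in the sources used here.

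The genes belong to the program that a neuron starts when its axon is cut or crushed. Injury signals travel along the axon and activate the kinase DLK (Map3k12) and the JNK kinases, which phosphorylate Jun, and Jun and ATF3 pair as AP-1-type factors on the genes that rebuild the axon. In the spinal cord the program runs in the motor neurons whose axons were injured, while the injured sensory neurons have their cell bodies outside the cord, in the dorsal root ganglia, where the same genes are induced. CSF1 made by injured neurons acts on its receptor CSF1R on microglia.

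Levels are arbitrary units of the authors' table, which is quantile-normalized over the 4 arrays, and differences are log2 values of these levels. With 1 array per condition the spread between mice cannot be estimated and no condition was tested against another. The error given is the spot error of the scanner software, which covers the measurement of a spot and nothing else. It was 0.144 log2 on every array for Gap43, Stmn4, Vgf and Ecel1 alike. For bright probes it is thus a nearly fixed value and not a spread measured for each probe. Probes printed in several spots had a median SD between spots of 0.0438 to 0.0598 log2 on an array. For a difference the spot error was about 0.204 log2 for probes with 1 spot of moderate to high level, and it is given as ±. A difference within or beyond 2 spot errors is a statement of size and no test. Well above background by the software's flag were between 65.1% and 70.1% of all probes on an array, and 14 of the 15 probes of the 10 genes on all 4 arrays. The exception, a Csf1 probe, passed the flag on none of them. Where a gene had several probes, the probe with the highest mean level stands for it unless another is named.

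Atf3, which encodes a transcription factor that is nearly silent in uninjured neurons and is used as a marker of injured ones, showed the lowest array of its series in ADX+PSL at ZT10. Its probe (mm9, chr1:192994547-192994606, minus strand) read 2688 at ZT10 and 2226 at ZT22 in sham+PSL, against 1093 and 1982 at the same times in ADX+PSL. The array of ADX+PSL at ZT10 stood apart below the other 3, and both ADX+PSL arrays were below both sham+PSL arrays. The log2 difference between ADX+PSL and sham+PSL was -1.30 ± 0.204 at ZT10, a level 2.46-fold lower, and -0.17 ± 0.204 at ZT22. ZT10 minus ZT22 gave 0.27 ± 0.204 in sham+PSL but -0.86 ± 0.204 in ADX+PSL, opposite in sign, the former within 2 spot errors. The time difference in ADX+PSL minus that in sham+PSL was -1.13 ± 0.289, which could not be tested with 1 array per condition.

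Jun, the AP-1 factor that JNK phosphorylates in injured neurons, read 4464 at ZT10 and 6123 at ZT22 in sham+PSL, against 4599 and 4929 in ADX+PSL. Its level was highest in sham+PSL at ZT22, and the other 3 arrays lay close together. ADX+PSL differed from sham+PSL by 0.04 at ZT10 and by -0.31 at ZT22, both within 2 spot errors. Sox11, a factor that maintains growth of regenerating axons, was measured by a pair of probes 546 bases apart. The brighter read 240 and 256 in sham+PSL and 258 and 266 in ADX+PSL, each pair giving ZT10 before ZT22. Wherever 4 values follow each other below, they stand in this order. No difference between its arrays was beyond 2 spot errors. The dimmer probe read 152, 190, 151 and 148, so that the probes put the level of sham+PSL at ZT22 at different ranks. Gadd45a, which encodes a growth arrest and DNA damage protein that is induced in injured neurons, read 844, 1178, 800 and 791. Here too sham+PSL at ZT22 was the high array, 1.49-fold above ADX+PSL at ZT22 (log2 -0.57 for ADX+PSL minus sham+PSL), and the other 3 arrays were alike within their spot error.

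Among the growth and cytoskeletal genes, Sprr1a differed most between arrays. This gene, which encodes a small proline-rich protein first known from skin and made by regenerating neurons, read 6391, 8953, 4077 and 8288 at its probe (mm9, chr3:92287955-92288014, minus strand). Both ZT10 arrays were below both ZT22 arrays, and ADX+PSL at ZT10 was the lowest, as for Atf3. ADX+PSL was lower than sham+PSL by 1.57-fold at ZT10 (log2 -0.65 ± 0.204) and differed by -0.11 at ZT22. ZT10 was below ZT22 by -0.49 log2 in sham+PSL and by -1.02 log2, or 2.03-fold, in ADX+PSL. Gap43, a growth cone protein under the plasma membrane, read 16550, 18610, 15325 and 15447, with both ADX+PSL arrays below both sham+PSL arrays by differences of -0.11 and -0.27 that did not exceed 2 spot errors. Stmn4, a stathmin-family regulator of microtubules, read 55086, 70237, 54745 and 57626 at its brighter probe and 50319, 58806, 47704 and 51106 at the other, which overlaps it by 44 bases. Both Stmn4 probes were highest in sham+PSL at ZT22 and lowest in ADX+PSL at ZT10.

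Csf1, the cytokine that injured neurons send to microglia, had the most precise measurement, since its main probe was printed in 10 spots (mm9, chr3:107544333-107544392, minus strand). It read 2201, 2494, 1848 and 2155. ADX+PSL was below sham+PSL by -0.25 ± 0.065 log2 at ZT10 and by -0.21 ± 0.065 at ZT22, and ZT10 was below ZT22 by -0.18 in sham+PSL and -0.22 in ADX+PSL. These small differences were all beyond 2 spot errors, which cover neither the labelling nor the mice. Vgf, a neuropeptide precursor that neurons make more of after nerve injury, read 21883, 21536, 23299 and 19108, and Ecel1, a neuronal membrane endopeptidase related to the endothelin-converting enzymes, read 12642, 12822, 11309 and 11709. No difference of Vgf or Ecel1 exceeded 2 spot errors, and for Vgf the highest and the lowest array were both ADX+PSL.

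**Figure D1:**
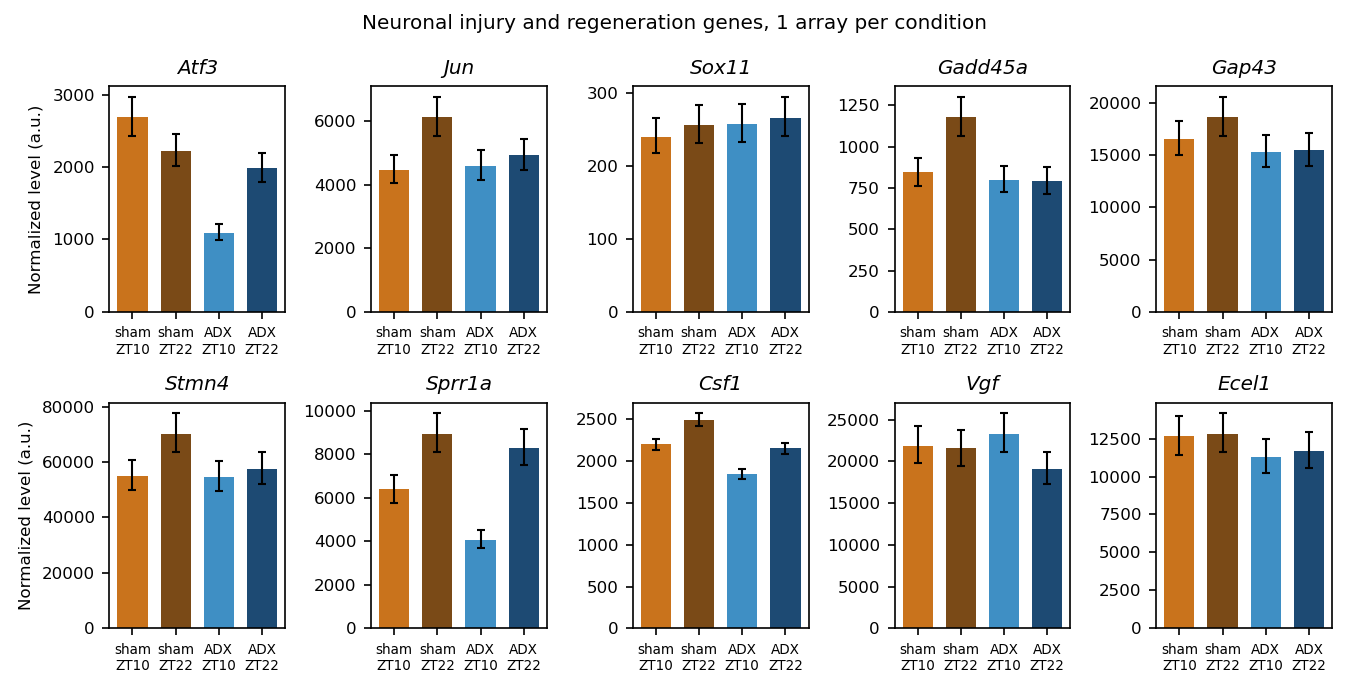
Normalized level (arbitrary units, linear axis from 0) of the brightest probe of each gene on the 4 arrays, 1 array per condition; bars are levels and whiskers ± 1 spot error, a technical error only. Atf3 and Sprr1a are lowest in ADX+PSL at ZT10 (1093 and 4077), and Jun, Gadd45a and Stmn4 stand highest in sham+PSL at ZT22.

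The comparison of ADX+PSL with sham+PSL asks which transcripts depend on the adrenal glands at each time of day. At ZT10, 7 of the 10 genes were lower in ADX+PSL and 3 higher, where 50.2% of all probes were lower. The median difference of the genes was -0.09 against a median of -0.00 and an SD of 0.36 over all probes. Only Atf3 passed the limits of the study's methods (at least 2-fold and a Z-score of at least 2 in size over all probes), with a Z-score of -2.23. By these limits 0.947% of the 26411 probes measured on both arrays were lower and 0.488% higher. At a limit of 1.5-fold alone Atf3 and Sprr1a were lower and no gene was higher, where 3.72% of all probes were lower and 3.31% higher. The differences of Atf3 and Sprr1a were reached or exceeded on the low side by 0.738% and 3.15% of the probes. At ZT22, 9 genes were lower and 1 higher, with a median of -0.19 against 0.01 over all probes, yet 0 genes passed either limit, where 0.581% of 25141 probes were lower and 0.442% higher by the methods' limits and 3.21% lower and 3.1% higher by 1.5-fold. Gadd45a, at -0.57, came nearest to the 1.5-fold limit.

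Over both times, 5 of the 10 genes had both ADX+PSL arrays below both sham+PSL arrays (Atf3, Gadd45a, Gap43, Csf1 and Ecel1), where 16.1% of 25009 probes measured on all 4 arrays did. Without normalization between arrays the count was 3. Sox11 alone had both ADX+PSL arrays above both sham+PSL arrays, by less than its spot error and not with the mean of its probes, where 18.9% of probes did. The gaps behind the order were small for most of the genes, and for Gap43 and Ecel1 within 2 spot errors at both times. These orders describe 4 arrays and are no test.

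**Figure D2:**
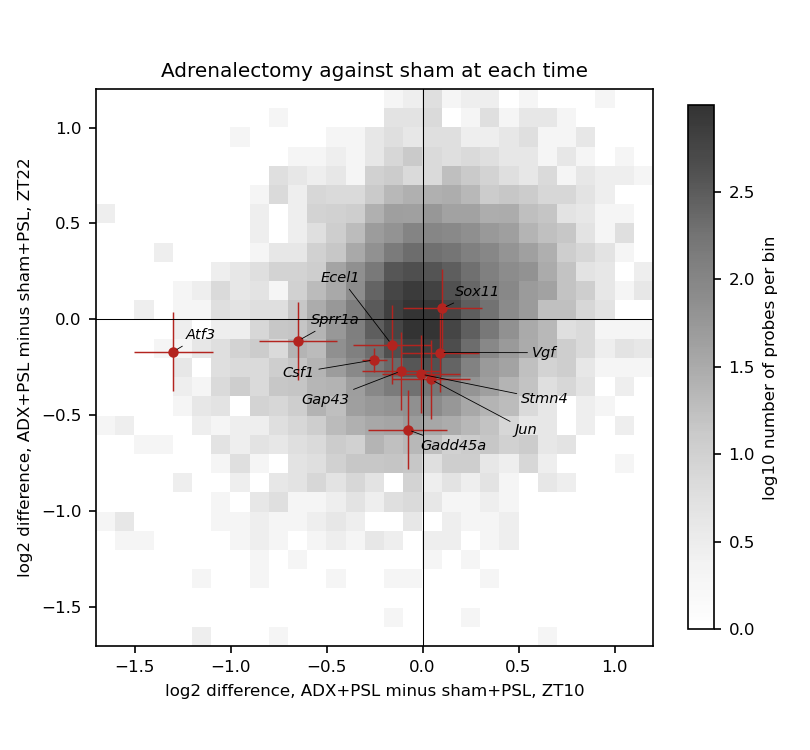
Log2 difference of ADX+PSL minus sham+PSL at ZT10 (x axis) against that at ZT22 (y axis): red points are the 10 genes with ± 1 spot error, grey squares the number of probes per bin (log10) among probes measured on all 4 arrays. Atf3 lies at -1.30 and -0.17 and Sprr1a at -0.65 and -0.11, while the other 8 genes lie between -0.25 and 0.10 at ZT10.

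The comparison of ZT10 with ZT22 asks which transcripts differ between the peak and the decline of corticosterone, and whether they still do without the adrenals. In sham+PSL, 8 genes were lower at ZT10 and 2 higher, where 48.4% of all probes were lower, with a median of -0.17 against 0.01 over all probes. Jun (-0.46), Gadd45a (-0.48) and Sprr1a (-0.49) were the lowest, and Csf1 (-0.18) was the only other gene beyond 2 spot errors. Csf1 passed through the smaller error of its 10 spots, while Stmn4 differed more (-0.35) and did not pass. Being beyond 2 spot errors thus depends on the number of spots of a probe, and the share of all probes beyond them is not given here. No gene passed the methods' limits, where 0.783% of 25812 probes were lower and 0.519% higher, or the 1.5-fold limit, where 3.8% were lower and 2.69% higher. In ADX+PSL the genes below ZT22 beyond 2 spot errors were Sprr1a (-1.02), Atf3 (-0.86) and Csf1 (-0.22), and Jun and Gadd45a differed by -0.10 and 0.02. By the methods' limits 0 genes were called in ADX+PSL, where 0.812% of 25376 probes were lower and 0.366% higher. Sprr1a passed 2-fold alone (1.04% of probes lower), and Atf3 and Sprr1a passed 1.5-fold, where 3.24% of probes were lower and 1.92% higher. As low as Sprr1a were 0.985% of the probes and as low as Atf3 1.41%. Jun, Stmn4 and Sprr1a had both ZT10 arrays below both ZT22 arrays, 3 of 10 genes where 15.5% of probes did, and Vgf had both above, where 18.2% did. The comparisons share arrays with each other: the low array of ADX+PSL at ZT10 enters both the adrenalectomy difference at ZT10 and the time difference in ADX+PSL.

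**Figure D3:**
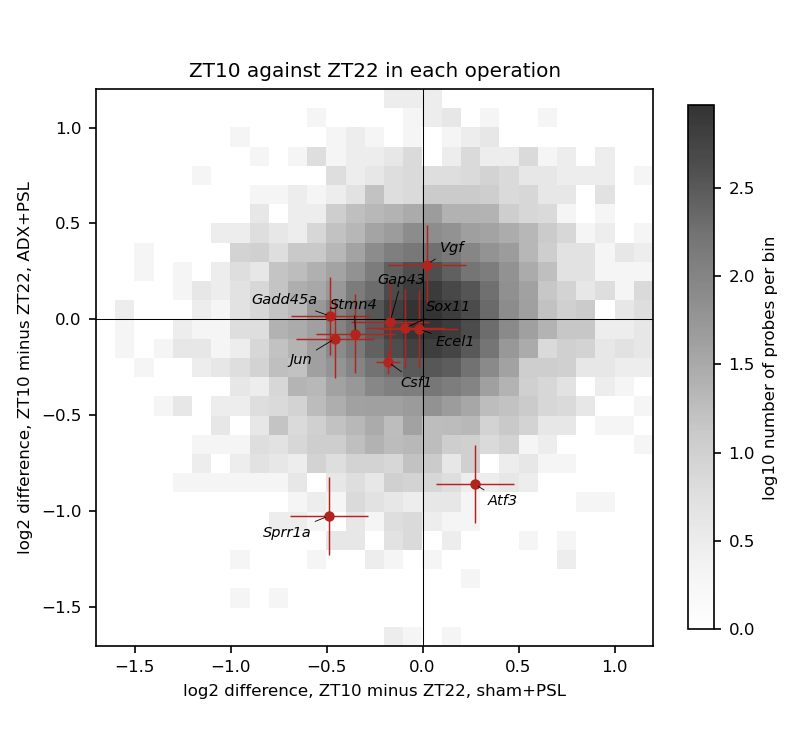
Log2 difference of ZT10 minus ZT22 in sham+PSL (x axis) against that in ADX+PSL (y axis), drawn as in the plot of adrenalectomy against sham. Atf3 lies at 0.27 and -0.86, on opposite sides of 0, and Sprr1a at -0.49 and -1.02, below 0 on both axes; Jun and Gadd45a lie near -0.5 in sham+PSL and near 0 in ADX+PSL.

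Read array by array, the level was highest in sham+PSL at ZT22 for 7 genes (24.4% of probes) and lowest in ADX+PSL at ZT10 for 6 (21.8%), both orders chosen after the values were seen. An additive limma fit of operation and time over 28843 probes, which leaves 1 residual degree of freedom, called 0 probes at an adjusted p of 0.05 for either factor, and 1803 probes (6.25%) for operation and 1420 (4.92%) for time at an unadjusted p of 0.05. The adjusted p of the main probes of the 10 genes lay between 0.841 and 0.985 for operation and between 0.932 and 0.983 for time. Sprr1a was the only gene whose main probe passed that unadjusted threshold, for time (log2 -0.75 with a standard error of 0.196, limma adjusted p = 0.932), and it was lower at ZT10 in both operations. The dimmer Csf1 probes A_55_P2169669 and A_55_P2017914 passed it for operation (log2 -0.82 and -0.49, limma adjusted p = 0.764 and 0.777).

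The Csf1 probes differed in how far ADX+PSL lay below sham+PSL. The main probe is assigned in the array files to NM_007778, and 2 dimmer probes, which overlap by 31 bases, to the transcript variant NM_001113530. The dimmer probes read 136, 170, 101 and 116 (A_55_P2017914) and 208, 168, 103 and 108 (A_55_P2169669). All 3 probes had both ADX+PSL arrays below both sham+PSL arrays. Their differences at ZT10 were -0.25, -0.42 and -1.01 log2, and at ZT22 -0.21, -0.55 and -0.63. A_55_P2169669 alone among all probes of the 10 genes was, besides Atf3, at least 2-fold lower in ADX+PSL at ZT10 (1.36% of probes). In sham+PSL its ZT10 level was above that at ZT22 where the other Csf1 probes were below. These time differences of the dimmer probes, 0.31 for A_55_P2169669 and -0.33 for A_55_P2017914, were both within 2 spot errors. The spot error of the dimmer probes was about 0.21 for a difference. The first 30 bases of these 60-base probes are shown, with those of Atf3 and Sprr1a, to let the target of each reading be looked up.
Atf3 probe A_52_P452689: cacagcagctttgtccttggctacaaactg
Sprr1a probe A_51_P139678: gctcctgagcctcttaacattgcccaaagt
Csf1 probe A_51_P195506: tgtggggcttacttagccttctggttacag
Csf1 probe A_55_P2017914: cgtgcagattaagatcacattagttttaac
Csf1 probe A_55_P2169669: cagctgcatcatatattgtcatatgttgag
No probe of another gene on the array shared a run of 25 bases with any of the 15 probes.

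**Figure D4:**
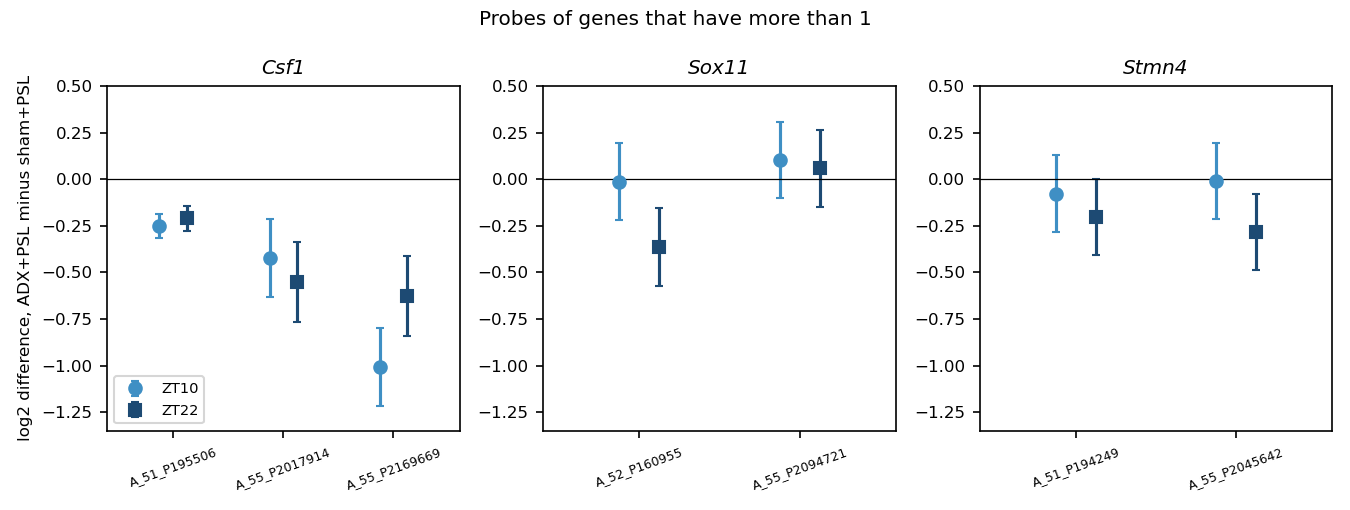
Log2 difference of ADX+PSL minus sham+PSL at ZT10 (circles) and ZT22 (squares) with ± 1 spot error for every probe above background of the genes with more than 1 probe. The Csf1 probes range from -0.21 to -1.01, all below 0, while those of Sox11 and Stmn4 lie between -0.36 and 0.10.

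Atf3 and Sprr1a were among the 6 of 10 genes lowest on the array of ADX+PSL at ZT10, and had the largest differences there. Promoters of the genes were read for sites of the factors that act in this program. RefSeq (GRCm38.p6) held a promoter window of 250 bases before and 50 bases after the gene start for 7 of the 10 genes. The bases before the start are printed 5′ to 3′ on the gene's strand, which is the minus strand for all 3, for Atf3 (chr1:191183334-191183583), Sprr1a (chr3:92485882-92486131) and Jun (chr4:95052223-95052472), with AP-1 and Jun-type sites in capitals.
Atf3 promoter: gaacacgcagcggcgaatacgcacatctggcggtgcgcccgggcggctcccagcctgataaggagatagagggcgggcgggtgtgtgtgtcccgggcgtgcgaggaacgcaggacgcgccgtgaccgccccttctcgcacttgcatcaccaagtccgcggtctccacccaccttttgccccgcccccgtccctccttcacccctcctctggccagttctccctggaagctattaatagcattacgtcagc
Sprr1a promoter: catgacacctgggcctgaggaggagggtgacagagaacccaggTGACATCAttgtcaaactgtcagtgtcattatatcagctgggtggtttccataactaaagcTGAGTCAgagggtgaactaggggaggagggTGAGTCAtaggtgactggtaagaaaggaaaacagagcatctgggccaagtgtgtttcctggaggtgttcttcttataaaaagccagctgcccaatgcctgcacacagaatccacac
Jun promoter: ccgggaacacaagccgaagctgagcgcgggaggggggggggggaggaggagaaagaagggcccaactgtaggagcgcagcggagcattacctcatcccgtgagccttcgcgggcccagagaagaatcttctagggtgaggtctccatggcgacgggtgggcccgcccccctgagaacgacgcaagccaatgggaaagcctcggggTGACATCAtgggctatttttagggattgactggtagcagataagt
The Sprr1a window holds the AP-1 letters TGANTCA, read on both strands, at 2 places, 146 and 116 bases before the gene start, and no other window of the 7 genes holds them. Of all 32851 promoter windows, 7.81% hold this motif. The Jun-type letters TGACATCA stand in the windows of Jun (45 bases before the start), Sox11 (42 bases) and Sprr1a (207 bases), 3 of 7 windows against 3.62% of all, and the motifs do not overlap each other. This count includes Jun, after which the motif is named, so it cannot be read as an excess over all windows. The cAMP response element TGACGTCA (1.79% of all windows), the E-box CACGTG, which clock factors bind (7.15%), and the full palindromic glucocorticoid response element with a spacer of 3 bases (0.00913%) were in 0 of the 7 windows. The Atf3 window held none of the 5 motifs in their exact letters. Near matches were not searched, and this window ends in attacgtcagc, which holds TTACGTCA, close to the searched TGACGTCA. A match of letters is a description and no evidence of binding, and receptor sites can lie outside so short a window.

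Of 93 other genes of the pathway, in 6 lists, 86 were measured on all 4 arrays; 23 of these had both ADX+PSL arrays below both sham+PSL arrays and 6 both above, against 16.1% and 18.9% of all probes. Their median difference over both times was -0.05 (0.00 over all probes). Past 1.5-fold, 3 were lower and 1 higher in ADX+PSL at ZT10, where 3.72% and 3.31% of all probes were, and 4 lower and 0 higher at ZT22, where 3.21% and 3.1% were. Between the times, 4 were lower and 1 higher at ZT10 in each operation, where 3.8% and 2.69% of probes were in sham+PSL and 3.24% and 1.92% in ADX+PSL. In the DLK and JNK list 0 of 17 genes passed 1.5-fold in any comparison. DLK itself (Map3k12) read 86.7, 71.1, 76.4 and 70.7, its relative Map3k13 was the most positive of the list in ADX+PSL (109, 112, 124 and 132), and Jund, an AP-1 partner, the most negative (18414, 16180, 14529 and 15417). Among the other transcription factors of regeneration, Cebpd, a C/EBP factor that glucocorticoids are known to induce, was the most negative (1381, 1211, 1019 and 879) and Sox12 the most positive (28.4, 41.2, 32.2 and 54.9).

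Growth cone and cytoskeletal proteins had 6 of 17 genes below and 2 above in both ADX+PSL arrays, where 16.1% and 18.9% of all probes were. The extremes were Tubb2b, a neuronal beta-tubulin (15684, 20031, 13841 and 13969), and Dcx, a microtubule protein of migrating neurons (256, 262, 283 and 329), and no gene of the list passed 1.5-fold. Among injury-induced peptides and processing enzymes, Vip, a peptide that injured sensory neurons make, was lower in ADX+PSL at both times (141, 170, 84.1 and 108; log2 -0.74 and -0.66), and the peptidase Mme was the most positive (106, 81.0, 112 and 114). Gal, the injury-induced neuropeptide galanin, chosen after its values were seen, read 7316, 13046, 7707 and 12442. Both ZT10 arrays were thus below both ZT22 arrays, by -0.83 log2 in sham+PSL and -0.69 in ADX+PSL, as for Sprr1a, while adrenalectomy moved Gal by 0.08 and -0.07.

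Trophic factors, cytokines and receptors had 6 of 13 genes below and 0 above, where 16.1% and 18.9% of all probes were. Ngfr, the p75 neurotrophin receptor that injured motor neurons and Schwann cells make, was lower in ADX+PSL at both times (525, 650, 259 and 419; log2 -1.02 and -0.63) and Bdnf, a neurotrophin, was the most positive (178, 168, 205 and 167). The microglial receptor of CSF1, Csf1r, read 16110, 20985, 13947 and 16550, with the same highest and lowest array as Csf1, and its other ligand Il34 read 1343, 1411, 1282 and 1206. In the GADD45 and p53 list 4 of 9 genes were below and 0 above; Gadd45b, a relative of Gadd45a, was the most negative (923, 966, 830 and 802), and Cdkn1a, a cell cycle inhibitor, was higher in ADX+PSL at both times without full separation of the operations (462, 323, 695 and 438).

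**Figure D5:**
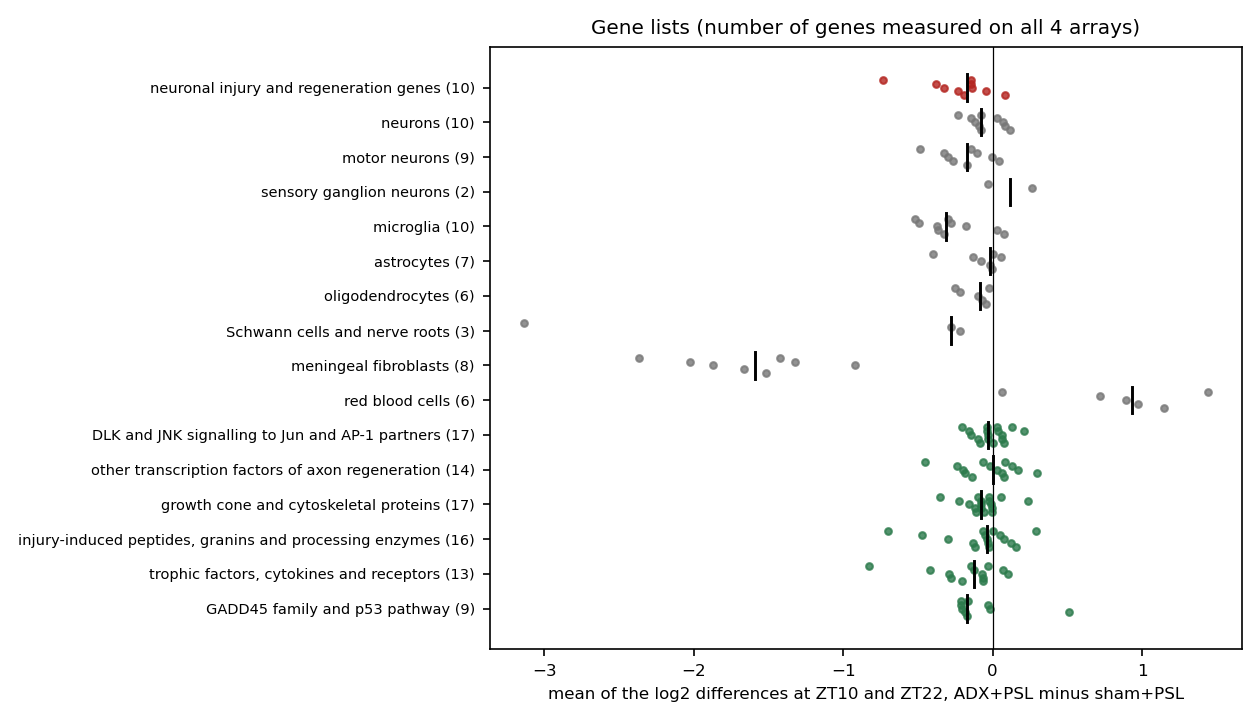
Mean of the log2 differences at ZT10 and ZT22, ADX+PSL minus sham+PSL, for each gene measured on all 4 arrays in the 10 genes (red), cell type markers (grey) and pathway lists (green); each point is 1 gene and black bars are medians. The 10 genes have a median of -0.17, the medians of the pathway lists lie between -0.17 (GADD45 and p53) and 0.00, and the meningeal fibroblast markers stand apart at -1.59.

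The RNA carried the transcripts of spinal cord: all 10 neuronal, 9 motor neuron, 10 microglial, 7 astrocyte and 6 oligodendrocyte markers were well above background on all arrays, as were Scn11a and P2rx3 among the markers of sensory ganglion neurons. Of the other ganglion markers, Trpv1 was well above background on 1 array and Scn10a, Mrgprd, Prdm12 and Avil on none, and Scn11a read between 39.3 and 54.6 and P2rx3 between 169 and 192. Several marker lists differed between the arrays alongside the injury genes. Beside the counts that follow, 16.1% of all probes had both ADX+PSL arrays below both sham+PSL arrays. Motor neuron markers had 4 of 9 genes with both ADX+PSL arrays below both sham+PSL arrays, led by Prph, an intermediate filament of neurons with peripheral axons (9259, 9886, 6393 and 7327), and summed levels of 39565, 44242, 34264 and 32362. A large part of the motor neuron sum was Calca (17119, 22426, 16355 and 14945). Chat, the acetylcholine-synthesizing enzyme of these neurons, read 1184, 1250, 1165 and 1042. Neuronal markers had 0 of 10 below, with a median of -0.08. In bulk RNA, fewer cells of a type and less RNA per cell cannot be told apart. Microglial markers had 5 of 10 below, with median differences of -0.23 at ZT10 and -0.37 at ZT22. Their sum was highest in sham+PSL at ZT22, 111615 against 87749, 88725 and 96582 elsewhere. A large part of that sum was Itgam, the most positive marker of the list (44355, 53144, 51198 and 50946), so that the sum mostly follows this probe. Gfap, the filament protein of reactive astrocytes, read 15516, 17308, 8565 and 18028, low on the same array as Atf3 and Sprr1a, whereas the astrocyte list as a whole had a median of -0.02.

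Meningeal fibroblast markers differed far more. All 8 measured on all 4 arrays were below in both ADX+PSL arrays. The sums over all 9 listed markers were 17746, 15356, 5594 and 5762. Of 7 markers of Schwann cells and nerve roots, the 3 measured on all 4 arrays were below as well. Prx of myelinating Schwann cells was far lower in ADX+PSL (466, 247, 40.9 and 36.3). The other measured markers differed much less, Cdh19 (116, 134, 95.2 and 112) and Ncmap (1047, 879, 859 and 789). Red blood cell genes were low in sham+PSL at ZT22 (sum 18767, against 89810 to 135912 on the other arrays), the array on which 7 of the 10 genes were highest. Whether the amount of meninges, nerve root, blood or ventral horn in the slices bears on the levels of the injury genes was not tested.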

How the data were processed

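Spinal RNA of 4 conditions was measured on 4 single-colour Agilent arrays of 1 slide, 1 array per condition. The authors deposited spot intensities of Agilent Feature Extraction (version 9.5.1.1 per the labels, 10.7.1.1 in the processing step of the file headers), with a signal corrected for background within the array, its error and background flags, and a table of linear intensities, quantile-normalized over the 4 arrays. Levels were taken from that table, and flags and spot errors from the raw files. Of 44397 spots, 1377 controls were left out and 0 were saturated. The members and lists were chosen with earlier results of these data known.

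A difference was computed only where both arrays were well above background. Calls used the study's limits (ratio of 2 and Z of 2 or more in size, Z over all 39429 probes), and an additive fit used limma 3.58.1 in R 4.3.3 (lmFit, eBayes, Benjamini-Hochberg), tested on simulated data. Precision is limited by the number of arrays. The genes named are the 10 members, the most positive and most negative gene of each pathway list, the partners Csf1r, Il34, Chat and Map3k12, and markers beside a result; Gal was added after its values were seen. Alternatives were 4 other normalizations, other probe summaries, limits, filters and fits. Probe positions are mm9 from the array files, promoters GRCm38.p6 from RefSeq, and the builds were not mixed. A marker of sensory ganglion neurons is not reported here.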

Additional observations from a re-analysis of the deposited data

Results flagged for a closer look

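Atf3 moved in opposite directions between ZT10 and ZT22 in the operations, by more than 1 spot error in each. It was higher at ZT10 in sham+PSL (log2 0.27, within 2 spot errors and reached or exceeded by 13.1% of probes) and lower at ZT10 in ADX+PSL (log2 -0.86, beyond 2 spot errors), so that the time difference in ADX+PSL minus that in sham+PSL was -1.13. The value rests on 1 probe and 1 array per condition, and the difference between the operations was not tested. No other main probe of the 10 genes showed opposite time differences beyond 1 spot error in each operation. The share of all probes that meet this rule is not given here, so that 1 gene of 10 cannot be read as unusual.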

How the results depend on the processing

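Of 139 summary values recomputed under alternatives, 132 kept their value within the limits set, 7 moved and 0 reversed, and of 172 values of single genes 164 kept it, 8 moved and 0 reversed. The Atf3 difference at ZT10 ranged from -1.38 to -1.25 and that of Sprr1a from -0.73 to -0.65, and the time difference of Sprr1a in ADX+PSL from -1.14 to -0.90. With a ratio of 1.5 and no Z-score, 2 genes were lower in ADX+PSL at ZT10 (1 by the methods' limits) and 2 lower at ZT10 than ZT22 in ADX+PSL (0 by the methods' limits), where a ratio of 2 without a Z-score gave 1. Without normalization, 3 genes had both ADX+PSL arrays below both sham+PSL arrays (5 in the authors' table), and with the mean over probes 0 had both above (1). With a shift to the 75th percentile or with normexp, 0 genes had both ZT10 arrays above both ZT22 arrays (1). The cause was not tested.

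Normexp lowered the all-probe calls by the methods' limits at ZT10 from 250 lower and 129 higher to 122 and 73, at ZT22 from 146 and 111 to 98 and 52, in sham+PSL between times from 202 and 134 to 108 and 90, and in ADX+PSL from 206 and 93 to 73 and 52, whose lower share went from 68.9% to 58.4%. The lower share of 1.5-fold calls went with the 75th percentile from 52.96% to 40.1% at ZT10 and from 62.8% to 49.8% between times in ADX+PSL, and without normalization from 50.9% to 31.8% at ZT22 and from 58.5% to 47.5% between times in sham+PSL. Without normalization the median of all probes moved to 0.12 at ZT22 and to -0.10 between times in ADX+PSL, but the median of the 10 genes stayed below that of all probes in every comparison under each normalization. The additive fit called 13 probes for operation and 11 for time among probes above background on all arrays, 10 and 9 with normexp, 39 and 14 with an intensity trend of the variance, and 6 for operation fitted alone. The other normalizations gave 0 for either factor, and 0 of the 10 genes were called in any of these settings. No paired analysis was possible because each group has 1 array and no replicate number to use as a block; the additive fit takes the time point as a covariate.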
